A study of Mus musculus with 2 samples.

Results

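The HOXA cluster is a run of neighbouring genes for homeodomain transcription factors, and 9 of its genes, Hoxa2 to Hoxa7 and Hoxa9 to Hoxa11, were followed here in macrophages sorted from mice with leukaemia. They were chosen by gene symbol; 8 of the 9 are among the 16428 genes with a read in either library, and Hoxa11 had none. Both groups came from C57BL/6J mice of 6 to 8 weeks, which had received 500000 leukaemia cells per mouse, carrying a green fluorescent label and driven by the MLL-AF9 fusion, with no irradiation. Unirradiated hosts keep their own blood-forming cells. The macrophages were sorted at day 15 of a disease that ended at 25 to 30 days. Bone marrow (marrow for short) and spleen gave 1 library each, so every difference is between 2 libraries and no p-value was computed. Which markers were sorted on, how many mice went into a library, and whether labelled leukaemia cells were gated out: none of this is stated in the labels.

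HOX genes lie along the chromosome in the order in which they act along the body axis. In blood, the middle and posterior HOXA genes are active in stem and progenitor cells and are turned down as cells mature. The histone methyltransferase MLL, encoded by Kmt2a, keeps them on, and fusions such as MLL-AF9 hold them on in leukaemia, where Hoxa9 acts with the cofactor Meis1.

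The effective depths after scaling were 9405947 uniquely placed reads for marrow and 8457857 for spleen. All 13 macrophage markers were detected in both, though Marco had 1 read in marrow. F4/80 (Adgre1) had 499 reads in marrow against 1204 in spleen. Summed over the list, macrophage markers stood at 575 CPM (counts scaled to a common library size) in marrow and 1283 CPM in spleen. Granulocyte precursor markers stood at 48651 and 2198 CPM, and progenitor markers at 2179 and 452 CPM. In such bulk samples, fewer cells of a type and less RNA per cell cannot be told apart.

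HOXA transcripts were scarce in both libraries and higher in marrow. The 9 genes together had 453 reads in marrow and 96 in spleen, or 48.2 and 11.4 CPM, a 4.24-fold difference (95% interval 3.40 to 5.35). This and all intervals below are exact and cover counting error only; the labels name no molecular identifiers, so PCR copies of a molecule may be counted as separate reads. Hoxa9 supplied most of that gap, but the other 8 genes were also higher in marrow when summed, with 224 and 68 reads and a 2.96-fold difference (2.25 to 3.95). To be called measured, a gene needed 10 reads and 1 CPM in either library. To be called higher it needed a 2-fold difference on log2(CPM + 1), which understates changes at low levels. Of the 9 genes, 5 were measured; 4 of these passed the limit towards marrow and 0 towards spleen, and Hoxa5 lay within it. Among all 12970 measured genes, 14.1 percent were higher in marrow and 14.6 percent in spleen. Hoxa3 was measured through marrow alone, where it is high, so its place among the 4 adds no support. With the floor met in both libraries, 4 HOXA genes were left, of which 3 (Hoxa7, Hoxa9 and Hoxa10) passed the limit towards marrow and 0 towards spleen, beside 12.5 and 12.8 percent of 11678 genes.

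**Figure D1:**
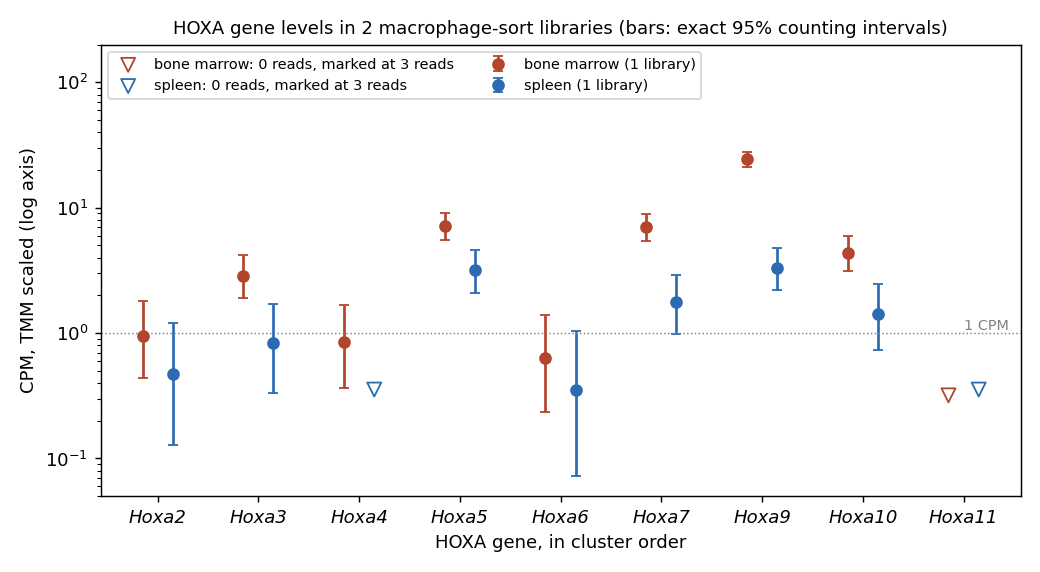
CPM (log axis) of each HOXA gene in the marrow and the spleen library, in cluster order, with exact 95% counting intervals; open triangles mark genes with 0 reads at the level of 3 reads. Hoxa9 in marrow, at 24.3 CPM, stands above every other point, and 4 genes do not reach 10 reads in either library.

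Hoxa9, required for normal stem cell function and a main effector of MLL fusions, had 229 reads in marrow and 28 in spleen. That is 24.3 and 3.31 CPM, a 7.35-fold difference (4.95 to 11.3). Of all measured genes, 2.13 percent had a log2 ratio at least as high as its 2.56. Hoxa10, its neighbour in the posterior part of the cluster and also a regulator of progenitor growth, had 41 and 12 reads. It stood at 4.36 and 1.42 CPM, a 3.07-fold difference (1.58 to 6.42). Hoxa11, a limb and uterus patterning gene, had 0 reads in both libraries. The exact interval allows up to 0.392 CPM in marrow and 0.436 CPM in spleen. The levels of 3 reads are 0.319 and 0.355 CPM.

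In the middle of the cluster, Hoxa7, a gene that MLL fusions also activate, had 66 reads in marrow and 15 in spleen. Its levels were 7.02 and 1.77 CPM, a 3.96-fold difference (2.23 to 7.46). Hoxa5, which patterns the lung and the axial skeleton, had nearly as many reads as Hoxa7 in marrow, 67, but 27 in spleen. At 7.12 and 3.19 CPM its ratio was 2.23 (1.41 to 3.63), while its log2 ratio with the pseudocount of 1 was 0.95 and fell just short of the 2-fold limit. Its counting interval lay above equal levels. Hoxa6, which lies next to Hoxa5, had 6 and 3 reads, a ratio of 1.80 (0.384 to 11.1), and a difference could not be detected at this depth.

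At the anterior end, Hoxa3, a gene of thymus and parathyroid development, had 27 reads in marrow and 7 in spleen. It stood at 2.87 and 0.83 CPM, a 3.47-fold difference (1.47 to 9.43). Hoxa2, a hindbrain and branchial arch gene, had 9 and 4 reads, a ratio of 2.02 (0.565 to 8.99) that did not separate the libraries. Hoxa4 had 8 reads in marrow and 0 in spleen, and its exact interval started at a ratio of 1.53. With spleen set at 3 reads the ratio was 2.40. Hoxa2, Hoxa4, Hoxa6 and Hoxa11 thus had fewer than 10 reads in both libraries. Added up, these 4 genes had 23 and 7 reads, a ratio of 2.95 (1.23 to 8.15). Hoxa3 rests on 7 reads in spleen, and its log2 ratio of 1.08 was the one closest above the limit.

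**Figure D2:**
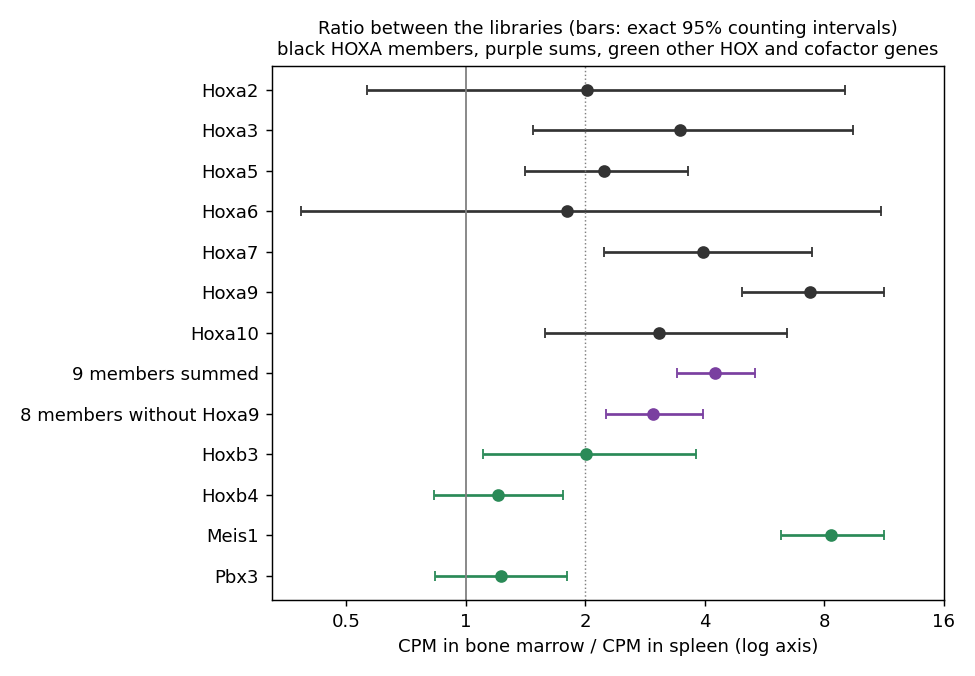
Ratio of CPM, marrow over spleen (log axis), for the HOXA genes with a read in both libraries, their sums, and other HOX and cofactor genes, with exact 95% counting intervals; the solid line is an equal level and the dotted line 2-fold. Hoxa9 at 7.35 lies beside Meis1 at 8.30, while Hoxb4 at 1.20 and Pbx3 at 1.22 have intervals that include 1.

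The 250 bases before the start of Hoxa5, Hoxa7 and Hoxa9 are shown because these 3 genes had the most reads of the cluster in both libraries. They are from RefSeq, build GRCm38.p6, 5′ to 3′ on the gene's strand; the build behind the read counts is unknown here. Capitals mark CG dinucleotides, the unmethylated form of which the CXXC domain of MLL binds.
Hoxa5 (GRCm38.p6, chr6:52204588-52204837, minus strand): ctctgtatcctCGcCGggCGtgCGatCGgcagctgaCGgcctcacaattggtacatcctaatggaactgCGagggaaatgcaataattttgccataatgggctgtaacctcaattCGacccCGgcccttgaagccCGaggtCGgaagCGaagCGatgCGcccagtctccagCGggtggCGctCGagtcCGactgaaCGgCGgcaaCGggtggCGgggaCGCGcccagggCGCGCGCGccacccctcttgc
Hoxa7 (GRCm38.p6, chr6:52218574-52218823, minus strand): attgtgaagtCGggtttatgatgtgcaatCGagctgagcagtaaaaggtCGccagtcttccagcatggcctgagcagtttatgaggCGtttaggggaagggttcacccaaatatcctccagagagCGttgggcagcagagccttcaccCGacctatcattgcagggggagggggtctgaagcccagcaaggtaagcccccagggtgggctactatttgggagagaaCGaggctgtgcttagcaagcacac
Hoxa9 (GRCm38.p6, chr6:52227371-52227620, minus strand): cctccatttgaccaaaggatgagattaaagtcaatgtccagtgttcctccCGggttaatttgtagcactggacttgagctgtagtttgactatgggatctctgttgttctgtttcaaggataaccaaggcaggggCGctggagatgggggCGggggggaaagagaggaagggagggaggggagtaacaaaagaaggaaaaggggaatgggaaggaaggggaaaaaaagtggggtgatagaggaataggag
These windows differed widely in CG content: the Hoxa5 window held 28 CG dinucleotides, that of Hoxa7 held 7 and that of Hoxa9 held 3. The median of 32851 promoter windows of this length was 6, and 92.4 percent held fewer than Hoxa5 while 29.0 percent held fewer than Hoxa9. Promoter windows were found for 8 of the 9 genes, all but Hoxa4. Hoxa6 and Hoxa3 held 24 and 18, Hoxa11 held 13 and Hoxa2 held 6, and the 2 starts listed for Hoxa10 held 7 and 20. For motifs, 3 short words were searched on both strands: TGACAG, bound by MEIS proteins, TGATTNAT, bound by PBX-HOX pairs, and TTTATGG, bound by posterior HOX proteins. TGACAG was found before Hoxa2 and Hoxa3 and in 15.9 percent of all windows, and TGATTNAT before Hoxa2, where the matches did not overlap, and in 2.82 percent of all windows. TTTATGG was found before none of the 8 genes and in 2.43 percent of all windows. None of these 3 motifs stood in the windows printed above, which says only that these letters are not in them.

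**Figure D3:**
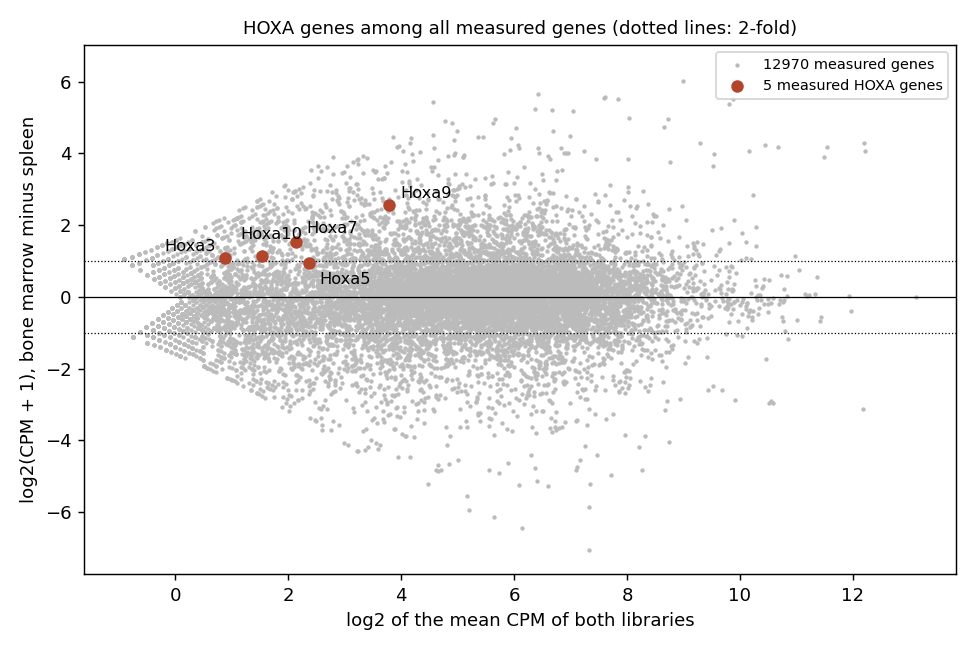
Difference in log2(CPM + 1), marrow minus spleen, against the log2 mean CPM of both libraries for all 12970 measured genes (grey) and the 5 measured HOXA genes (red), with dotted lines at 2-fold. The 5 HOXA genes lie at the low end of expression and on the marrow side, with Hoxa5 at 0.95 just under the line.

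Per length, the order of the genes differed between the libraries at its top. Levels between genes are compared as the deposited RPKM, reads scaled to gene length and library total. In marrow Hoxa9 came first at 7.37 RPKM, followed by Hoxa5 at 3.71, Hoxa7 at 3.51, Hoxa10 at 1.65 and Hoxa3 at 1.10. Hoxa6, Hoxa4 and Hoxa2 came last at 0.892, 0.544 and 0.527 RPKM. Only 2 of the steps between neighbours were larger than the counting error, that from Hoxa9 to Hoxa5 (1.99-fold, 1.51 to 2.65) and that from Hoxa7 to Hoxa10 (2.13-fold, 1.42 to 3.22). In spleen Hoxa5 came first at 1.74 RPKM, before Hoxa9 at 1.05 and Hoxa7 at 0.930. Hoxa10 followed at 0.563 RPKM, Hoxa6 at 0.519, Hoxa3 at 0.333 and Hoxa2 at 0.273. No step between neighbours in spleen was larger than the counting error; that from Hoxa5 to Hoxa9 was 1.66-fold (0.941 to 2.92).

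The make-up of the HOXA reads differed as well. Hoxa9 took 50.6 percent of the HOXA reads in marrow (45.8 to 55.2, Clopper-Pearson) and 29.2 percent in spleen (20.3 to 39.3). Hoxa5 took 14.8 percent in marrow (11.7 to 18.4) and 28.1 percent in spleen (19.4 to 38.2). The intervals of the libraries did not overlap for either gene. Shares of the same total depend on each other, so a larger share of Hoxa9 by itself lowers that of Hoxa5. Read ratios of Hoxa5 to Hoxa3, Hoxa7 and Hoxa10 had intervals that include equal ratios in the libraries. The share of Hoxa7 was close in both, at 14.6 and 15.6 percent, as was that of Hoxa10, at 9.05 and 12.5 percent. Hoxa4, with 0 of 96 HOXA reads in spleen, could have a share of up to 3.77 percent there (Clopper-Pearson) and had 1.77 percent in marrow. There were 3.42 reads of Hoxa9 for each read of Hoxa5 in marrow and 1.04 in spleen, and the ratio of these ratios was 3.28 (1.73 to 6.22). Against the other 8 genes together the ratio of Hoxa9 differed 2.48-fold (1.51 to 4.16). Of the 10 pairs among the 5 measured genes, 2 had an interval that left out equal ratios, and both included Hoxa9: with Hoxa5, and with Hoxa10 (2.39, 1.02 to 5.33). These intervals are not adjusted for the number of pairs.

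**Figure D4:**
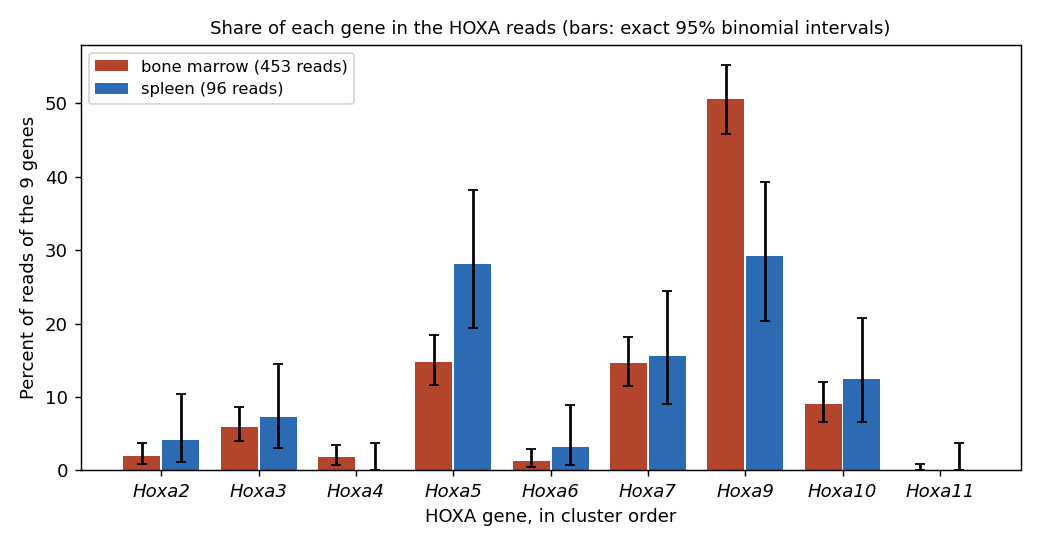
Percent of the reads of the 9 HOXA genes that fell on each gene, in marrow (453 reads) and spleen (96 reads), with exact 95% binomial intervals. Hoxa9 takes 50.6 percent in marrow and 29.2 percent in spleen, while Hoxa5 takes 14.8 and 28.1 percent.

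The reads of Hoxa9 in marrow covered less of the gene than those of most genes with a like read density. In the deposited coverage column, 68.0 percent of the 3229 bases of Hoxa9 were covered in marrow. Among 1167 genes of that library with a read density within 20 percent of that of Hoxa9, the median was 89.5 percent (quartiles 83.5 and 92.6), and 10.1 percent of them had lower coverage. Hoxa7 had 58.0 percent covered against a median of 73.0 percent, and Hoxa10 had 40.1 against 49.4 percent. Hoxa5 was close to its like genes at 74.2 against 74.8 percent. In spleen Hoxa9 had 27.5 percent covered against 32.1 percent, just under the lower quartile of 28.2 percent, and Hoxa5 had 53.3 against 45.5 percent. RefSeq lists 2 transcripts each for Hoxa9 and Hoxa10, which the tables count as 1 gene, so isoforms could not be compared. The span of Hoxa3 overlaps Hoxa4, Hoxa5, Hoxa6 and the antisense RNA Hoxaas3, and the labels do not say whether reads were assigned by strand, so counts of these genes are uncertain. Hoxaas3, antisense beside Hoxa5 and Hoxa6, had 7 reads in marrow and 0 in spleen, or 2.10-fold higher with spleen set at 3 reads. That value takes the marrow count as exact and is not a lower limit.

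**Figure D5:**
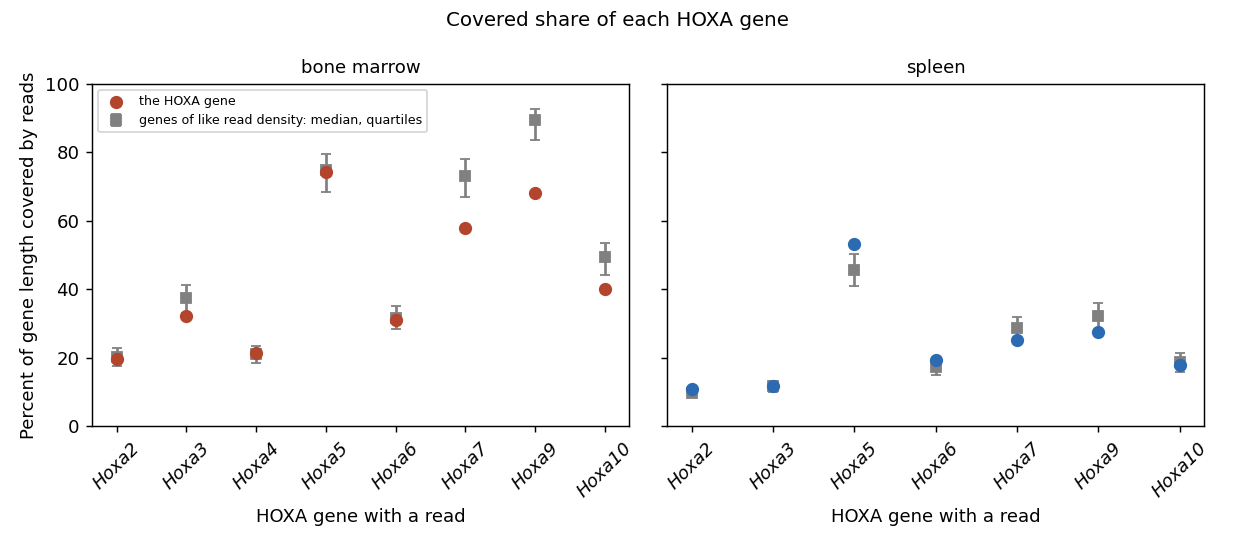
Percent of gene length covered by reads for each HOXA gene with a read (coloured points), beside the median and quartiles of genes with a read density within 20 percent of it (grey), in marrow (left) and spleen (right). In marrow Hoxa9, at 68.0 percent, lies under the lower quartile of 83.5 percent, while Hoxa5, at 74.2 percent, lies close to its median of 74.8 percent.

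The HOXB genes, which normal progenitors also express, differed less between the libraries than the HOXA genes. HOXB genes had 120 reads in marrow and 72 in spleen, a 1.5-fold difference (1.11 to 2.04). The ratio of HOXA to HOXB reads was 3.78 in marrow and 1.33 in spleen, and these differed 2.83-fold (1.93 to 4.14). Without Hoxa9 the difference was 1.97-fold (1.30 to 3.003). Hoxb4, a gene known for expanding stem cells, had 71 and 53 reads, a ratio of 1.20 (0.832 to 1.75), and Hoxb3 had 38 and 17. Per length, Hoxb4 ranked first in spleen among the 7 HOX genes with at least 10 reads in either library, at 2.50 RPKM, and at rank 4 in marrow, at 2.87 RPKM. Outside the 9 genes, 17 HOX genes had a read, and Hoxb3 and Hoxb4 were the 2 that were measured; neither passed the 2-fold limit. No read was listed for Hoxa13, at the posterior end of the HOXA cluster.

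The cofactors that bind DNA with HOX proteins divided. Of 7 measured, 2 passed the 2-fold limit towards marrow and 1 towards spleen, beside 14.1 and 14.6 percent of all measured genes. The list's median log2 ratio was 0.25. Meis1 had 480 reads in marrow and 52 in spleen, and its ratio of 8.30 (6.23 to 11.3) stood beside the 7.35 of Hoxa9. Pknox2 had 36 and 2 reads, a ratio of 16.2 (4.17 to 139). It was measured through marrow alone, where it is high, so its place among the 2 adds no support. Meis3 went the other way, with 19 reads in marrow and 131 in spleen. Pbx3, the PBX protein most tied to HOXA9 in leukaemia, had 68 and 50 reads, a ratio of 1.22 (0.836 to 1.80).

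Most genes that switch the HOXA cluster on or off lay within 2-fold, as did 71.2 percent of all measured genes. Of 25 genes of the MLL and elongation complexes, 21 lay within the limit, 1 passed it towards marrow and 3 towards spleen (median log2 ratio 0.12). Wdr5, a core subunit of the methyltransferase, was at 166 CPM in marrow and 66.3 in spleen. Kmt2a itself was at 149 CPM in marrow and 459 CPM in spleen, opposite to the HOXA genes. Mllt3, which encodes AF9, was at 21.4 and 39.3 CPM, and Dot1l, the H3K79 methyltransferase that MLL fusions recruit, at 116 and 107 CPM. Of 23 Polycomb repressor genes, 18 lay within the limit, 2 were higher in marrow and 3 in spleen (median -0.06). Ezh2, the H3K27 methyltransferase, was at 183 and 69.0 CPM, and Cbx7, a reader of that mark, at 22.5 and 180.5 CPM. None of the 6 histone demethylases passed the limit. Of 3 measured retinoic acid receptor genes, Rara was higher in spleen, at 82.4 CPM against 25.5, and Rarb and Rarg lay within the limit, as did Ctcf, which encodes a boundary factor. No read was listed for Cdx1, Cdx2 or Cdx4.

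Genes flanking the cluster, 7 of them measured, lay within 2-fold, and 0 passed the limit in either direction, with a median log2 ratio of 0.52. Skap2, an adaptor protein gene next to the anterior end, had 1267 and 791 reads, a ratio of 1.44 (1.32 to 1.58). Hibadh, beyond the posterior end, was 1.71-fold higher in marrow (1.51 to 1.94), and Jazf1 was the lowest at 1.19 (0.66 to 2.16).

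Genes tied to HOXA9 and MEIS1 in leukaemia were higher in marrow more often than in spleen. Of 20 such genes, 11 passed the limit towards marrow and 1 towards spleen, beside 14.1 and 14.6 percent of all measured genes. Their median log2 ratio was 1.63. Dach1 and Erg, both transcription regulators, were at 84.1 and 79.9 CPM in marrow and at 2.84 and 2.72 CPM in spleen. Myb, a transcription factor that leukaemia cells depend on, had 5351 and 795 reads, a ratio of 6.05 (5.62 to 6.53). Nkx2-3 had 52 reads in marrow and 1 in spleen, a ratio of 46.8 (8.03 to 1882). Nkx2-3 and Mecom were measured through marrow alone, so their places among the 11 add no support. Bcl2 and Flt3 were lower in marrow within the limit, at 77.7 and 71.1 CPM against 146 and 118 CPM, and Trib2 was the gene past it in spleen.

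Several of those genes, Cd34, Erg, Myb, Mecom and Sox4 among them, are also progenitor markers. Of 16 progenitor markers, 12 were higher in marrow and 1 in spleen (median log2 ratio 2.89). For this and the lists below, the shares of all measured genes were 14.1 percent towards marrow and 14.6 percent towards spleen. Mecom, a stem cell regulator, was at 0 reads in spleen and 53 in marrow. It was not the only member of this list measured through marrow alone, and such members add no support to the 12. With the floor met in both libraries the median of the progenitor markers was 2.67. All 13 granulocyte precursor markers were higher in marrow (median 4.61), and none was at 0 in spleen. Of 13 macrophage markers, 0 were higher in marrow and 8 were higher in spleen (median -1.34). Of 10 measured stromal and endothelial markers, 6 were higher in marrow and 1 in spleen (median 1.97). With the floor met in both libraries that median turned to -0.66. Members measured through marrow alone thus weighed on the count and add no support. In that list Cxcl12 and Emcn were at 0 in spleen, and Pdgfra and Twist2 at 0 in both libraries; the list summed to 196 CPM in marrow and 191 CPM in spleen. Basophil and mast cell markers were higher in marrow in 6 of 6 (median 5.03, summed 2006 against 41.7 CPM), and eosinophil markers in 3 of 4, with 1 higher in spleen (median 4.36, 655 against 43.9 CPM). Megakaryocyte markers were higher in marrow in 5 of 7 (median 2.004, 304 against 21.4 CPM). So were B cell precursor markers, with 1 higher in spleen (median 2.03, 290 against 196 CPM). No marker of these 4 lists was at 0 reads in a library, but some were measured through 1 library alone. With the floor met in both, medians were 5.21 for basophil and mast cell, 2.36 for megakaryocyte and 1.38 for B cell precursor markers. In those lists, markers measured through marrow alone add no support to the counts. These marker lists moved between the same 2 libraries as the HOXA genes, and their part in the HOXA difference was not tested.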

How the data were processed

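Sorted macrophages of leukaemic mice were profiled by RNA-seq, with 1 library for each of bone marrow and spleen. Each deposited table gives, per the file headers, the count of reads placed uniquely on a gene, its length, the percent of that length with reads on it, and RPKM. How the authors aligned and counted reads, and on which build and annotation, is not given in the sources used here. Genes were matched by Entrez identifier across tables, absence from a table being read as 0 reads, and RefSeq GRCm38.p6 supplied symbols for 16379 of 16428 identifiers.

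CPM were obtained with TMM factors from edgeR 4.0.16 under R 4.3.3, and differences were taken on log2(CPM + 1). Ratios have exact conditional binomial 95% intervals, for counting error alone. With 1 library per group no test across samples was possible. Ratios of ratios have exact conditional intervals of the odds ratio of reads. Genes with a single read show that 1 read covers 49 bases, which gave the read density. The procedure was also run on simulated Poisson counts, which hold no variation between animals, so that run says nothing about such variation. Members and gene lists were chosen with earlier results of these data known; 2 genes of the lists are not reported here and enter no list's count or median. The text names all 9 HOXA genes and, from each list, mainly members with the largest ratio or level. Chosen after their values were seen were the pairing of Hoxa5 with Hoxa9 and of HOXA with HOXB, and the naming of Mllt3, Dot1l, Pbx3, Bcl2, Flt3, Jazf1, Hibadh and Hoxc8. The settings varied were the scaling (DESeq2 1.42.0 size factors or library totals), the pseudocount (0.1 or 5), the floor (none, or 10 CPM), the fold (4-fold), the unit (deposited RPKM) and the sum (without Hoxa9); TMM factors without marker genes and a floor in both libraries were added after seeing the data.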

Additional observations from a re-analysis of the deposited data

How the results depend on the processing

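With a pseudocount of 5, a floor of 10 CPM or a 4-fold rule, 1 HOXA gene in place of 4 counted as higher in bone marrow. In each case it was Hoxa9, and of all measured genes, 9.59, 13.7 and 4.42 percent then counted as higher. At the floor of 10 CPM, Hoxa9 was the 1 HOXA gene measured. It met that floor in bone marrow alone, at 24.3 CPM against 3.31 in spleen, so its call there adds no support. With a pseudocount of 0.1, or with the deposited RPKM, 5 HOXA genes counted as higher in bone marrow, Hoxa5 included, beside 16.1 and 14.7 percent of all measured genes. The pseudocount of 5 lowered the log2 ratios to 0.43 for Hoxa3, 0.83 for Hoxa7, 1.82 for Hoxa9 and 0.54 for Hoxa10, and that of the summed reads from 1.99 to 1.70; by its construction it shrinks genes of few CPM. The summed log2 ratio was 1.46 without Hoxa9. In no alternative run was a HOXA gene higher in spleen, and none of the 5 measured genes changed direction. With the floor met in both libraries, the median log2 ratio of the stromal and endothelial markers turned to -0.66 from 1.97, fewer genes of that list being counted. Under that floor the medians fell to 1.21 for the HOXA9 and MEIS1 genes and 0.20 for the cofactors. They fell to 2.67 for progenitor and 1.38 for B cell precursor markers. They rose to 2.36 for megakaryocyte and 5.21 for basophil and mast cell markers. No paired analysis was possible because there is 1 library per tissue. Depth limits Hoxa2, Hoxa4, Hoxa6 and Hoxa11, each with fewer than 10 reads in both libraries, and the spleen values of Hoxa3 and Hoxa10, with 7 and 12 reads. Animals were not replicated.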

Other observations

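The few reads on the HOXC cluster went the other way from the HOXA reads. HOXC genes had 14 reads in spleen against 3 in bone marrow, a bone marrow to spleen ratio of 0.193 (95% counting interval 0.0355 to 0.690). Of these, Hoxc4, a gene known from B lymphocytes, had 9 and 1 reads, and Hoxc8 had 3 and 0. The HOXD genes had 5 and 2 reads. All 8 B cell markers and all 8 T cell markers were at least 2-fold higher in spleen (median log2 ratios -3.61 and -3.08), as were 6 of 8 dendritic cell markers (-2.83) and 3 of 5 NK cell markers (-1.12). B cell precursor markers went the other way, with 5 of 7 higher in bone marrow (2.03). The part of these cell types in the HOXC reads was not tested.

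The 5 genes whose deposited RPKM in the 2 libraries lay nearest to that of Hoxa9 were Tceal8, Dgkg, Slc22a4, Dnajc6 and Scarf1. Tceal8 stood at 7.49 and 0.975 RPKM and Dgkg, a diacylglycerol kinase, at 6.98 and 0.964 RPKM, against 7.37 and 1.05 RPKM for Hoxa9. The likeness is a distance on log2(RPKM + 0.1) over 2 values per gene, among genes with at least 100 reads in bone marrow.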
